A study of Mus musculus with 30 samples.

Results

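The SR splicing factors and the hnRNP proteins are 2 families of RNA-binding proteins that decide, together with the spliceosome, which exons a messenger RNA keeps. Their genes were taken from the deposited table of counts per gene as all mouse symbols that start with Srsf and a number or with Hnrnp, with pseudogenes left out. This gave 31 of the 46078 genes in the table, 11 SR genes and 20 hnRNP genes. A further 2 symbols were left out as pseudogenes, Hnrnpa1l2-ps and Hnrnpa1l2-ps2. Of the 31 genes, 30 reached 10 CPM (fragments of a gene scaled to a common library total) in at least 1 library, and Srsf12 had 0 fragments in all of them.

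RNA had been sequenced from C2C12 cells, an immortal mouse myoblast line that proliferates in serum and can be made to fuse into muscle fibres. The cells were in the growing state in medium with 20% fetal bovine serum, were stained for DNA content with Hoechst 33342 for 15 min, and were sorted into a G1, an S and a G2/M fraction. No fraction carried a further treatment or allele, and all 3 came from this 1 cell line, so nothing here speaks to other myoblasts. Each phase had 2 columns of counts. The question the design poses for these genes is how the RNA of the splicing regulators differs between phases of the cycle in dividing myoblasts.

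SR proteins carry RNA recognition motifs and a tail rich in arginine and serine. They mostly bind exonic enhancers and recruit the spliceosome to nearby splice sites, and kinases of the SRPK and CLK families phosphorylate the tail and set where the proteins reside and how active they are. The hnRNP proteins coat nascent transcripts, often act as silencers of exons, and also take part in RNA export, stability and translation. Many genes of both families limit their own expression by splicing in an exon with an early stop codon, which sends the RNA to nonsense-mediated decay. The counts used here are per gene and hold productive and non-productive isoforms together.

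The 6 columns held 16109055 to 18103769 fragments. The titles call the 2 columns of each phase replicate 1 and replicate 2, and no source used here says whether they came from separate cultures. Over all genes with at least 10 fragments, chi-square over its degrees of freedom between the 2 columns was 1.00 for G1 (p = 0.450), 1.03 for S (p = 0.0109) and 1.15 for G2/M (p = 3.11e-28), from a chi-square test that compares the reads of 2 columns and not conditions. The columns of G1 thus differed by no more than the counting of fragments allows, and those of S and G2/M by slightly more. Over the members, chi-square divided by the number of genes was 0.741 in G1, 1.09 in S and 0.805 for G2/M, and the highest absolute log2 ratio between 2 columns of a phase was 0.0788. The columns were treated as repeat measurements of 1 library and added up, which left a single library for each phase: 32395232 fragments in G1, 35822319 fragments in S, 35907974 fragments in G2/M. With phases represented this way by 1 library each, no p-values between phases are given. Where a ratio is given with an interval, it is the exact 95% binomial interval. This interval covers counting error only and would be too narrow for fragments copied in the amplification. A mark of a lot stands in the titles of S alone, so that in comparisons with S the lot and the phase cannot be told apart. In bulk RNA, fewer cells with a transcript and less of it per cell cannot be told apart either.

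Genes of known periodicity (8 genes) were read as a check of the sort. Each was highest in G1 or in G2/M and none in S, so they hold no positive marker of the S fraction. Ccnb1, the mitotic cyclin, had 74.3 CPM in G1, 242 CPM in S, 390.3 CPM in G2/M, and Cenpf, a kinetochore protein made before mitosis, had 42.4 CPM in G1, 369 CPM in S, 639 CPM in G2/M. Ube2c and Plk1, which act in mitosis, were likewise lowest in G1 and highest in G2/M, at 14.2 CPM in G1 and 108 CPM in G2/M for Ube2c. The check genes tied to entry into S and to replication were highest in G1. Cdc6 had 140.3 CPM in G1, 11.2 CPM in S, 24.2 CPM in G2/M, and Pcna had 408 CPM in G1, 183 CPM in S, 170.0 CPM in G2/M. Ccne2 and Cdt1 were also highest in G1 and lowest in S. Of the 6 myoblast markers, Des, Cdh15 and Myf5 stood between 66.0 and 311 CPM in all 3 libraries, while Myod1 had only 213, 218 and 208 fragments in G1, S and G2/M, and Pax7 and Myog had at most 119. Of 16 markers of other cell types 3 reached 10 CPM (Pparg, Runx2 and Tubb3), and Ptprc, Epcam, Cdh1, Krt8, Adipoq, Sox10 and Acan had 0 fragments. Mitochondrially encoded genes took 1.77% of the G1 library, 1.34% of the S library and 1.07% of the G2/M library, which is given again beside the result that moves with it.

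Promoters are shown for members with a promoter entry whose RNA differed most in either direction between G2/M and G1. The letters upstream of the listed start sites can thus be read beside the values. Of the 31 genes, 29 had an entry among the RefSeq promoters of build GRCm38.p6, 11 SR and 18 hnRNP genes. Each line gives the 250 bases upstream of the start site, 5′ to 3′ on the strand of the gene, in lower case. Capitals mark TTTGAA (the letters of the cell cycle homology region of many mitotic genes), CCAAT (the letters of NF-Y sites) and TTCCCGC or TTGGCGC (letters of E2F sites), each on either strand. The first 5 belong to genes at least 1.5-fold lower in G2/M than in G1: Hnrnpa0 (chr13:58128557-58128806, minus strand), Hnrnpl (chr7:28810640-28810889, plus strand), Hnrnph3 (chr10:63023850-63024099, minus strand), Hnrnpu (chr1:178337816-178338065, minus strand) and Srsf4 (chr4:131873387-131873636, plus strand). Hnrnpll was also past this fold and had no entry among these promoters. By the annotation of the counts, the windows of Hnrnpl (gene at 28808541 to 28822266) and Hnrnph3 (gene at 63014664 to 63024217) lie within the gene. The window of Srsf4 (gene at 131873617 to 131901706) overlaps the gene at its end. The last is Hnrnpr (chr4:136310692-136310941, plus strand), which had the highest ratio of G2/M over G1 of all members.
Hnrnpa0: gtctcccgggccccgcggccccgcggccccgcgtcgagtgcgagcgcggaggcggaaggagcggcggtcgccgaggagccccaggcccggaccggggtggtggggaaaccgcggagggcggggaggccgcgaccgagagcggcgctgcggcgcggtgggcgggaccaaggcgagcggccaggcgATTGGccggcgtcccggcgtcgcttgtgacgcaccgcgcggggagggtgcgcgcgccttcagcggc
Hnrnpl: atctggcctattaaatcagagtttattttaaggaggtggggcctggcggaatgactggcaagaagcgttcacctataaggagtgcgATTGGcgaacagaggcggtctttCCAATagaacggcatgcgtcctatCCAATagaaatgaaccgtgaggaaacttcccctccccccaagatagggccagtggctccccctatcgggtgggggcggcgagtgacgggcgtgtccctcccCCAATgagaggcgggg
Hnrnph3: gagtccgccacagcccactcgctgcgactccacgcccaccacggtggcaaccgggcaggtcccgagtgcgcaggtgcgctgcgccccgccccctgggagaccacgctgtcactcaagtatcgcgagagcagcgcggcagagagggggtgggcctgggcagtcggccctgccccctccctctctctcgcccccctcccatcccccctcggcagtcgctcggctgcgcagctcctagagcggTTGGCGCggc
Hnrnpu: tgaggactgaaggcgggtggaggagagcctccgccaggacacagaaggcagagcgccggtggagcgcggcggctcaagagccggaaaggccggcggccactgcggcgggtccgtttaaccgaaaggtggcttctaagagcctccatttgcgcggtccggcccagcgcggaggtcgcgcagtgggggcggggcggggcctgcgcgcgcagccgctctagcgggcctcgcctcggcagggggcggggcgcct
Srsf4: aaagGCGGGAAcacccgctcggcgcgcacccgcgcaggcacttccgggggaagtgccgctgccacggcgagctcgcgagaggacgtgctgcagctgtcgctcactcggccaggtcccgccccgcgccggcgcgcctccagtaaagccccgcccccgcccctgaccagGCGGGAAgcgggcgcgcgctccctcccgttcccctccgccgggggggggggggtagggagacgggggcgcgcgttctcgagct
Hnrnpr: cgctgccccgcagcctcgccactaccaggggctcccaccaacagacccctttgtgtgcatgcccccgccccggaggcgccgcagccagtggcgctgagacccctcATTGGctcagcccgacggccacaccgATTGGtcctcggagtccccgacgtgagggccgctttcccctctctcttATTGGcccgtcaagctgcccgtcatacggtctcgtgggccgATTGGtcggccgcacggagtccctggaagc

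The letters CCAAT were found in 15 of the 29 member windows (3 SR and 12 hnRNP genes), against 33.8% of all 32851 windows of this length. They occurred 4 times in the window of Hnrnpl, which was lower in G2/M, and also 4 times in that of Hnrnpr, which was higher. TTTGAA was found in 4 of the 29 windows (Hnrnpa1, Hnrnpa2b1, Hnrnpul1 and Srsf11), against 16.0% of all windows, and in none of the 6 printed here. TTCCCGC was found in 5 windows, among them 2 copies at Srsf4, against 3.82% of all windows. TTGGCGC was found in 3 windows (Hnrnph2, Hnrnph3 and Hnrnpk), against 1.97%. The median GC content was 65.2% in the member windows and 52.4% in all windows, a difference in base composition that bears on every one of these counts. The matches are descriptions of letters and not of bound sites.

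Levels of different genes were compared per exon length, as TPM (fragments per exon base, scaled to a common total in each library), averaged over the 3 libraries. Hnrnpa1 stood first with 6757 TPM, followed by Hnrnpa2b1 with 3303 TPM and Hnrnpa3 with 3142 TPM. Hnrnpab (1092 TPM), Hnrnpk (1048 TPM) and Hnrnph1 (996 TPM) came next. The highest SR genes were Srsf1 with 712 TPM, Srsf2 with 537 TPM and Srsf7 with 526 TPM. At the low end Srsf4 had 33.6 TPM and Hnrnpr had 35.4 TPM, the second of these over 22199 exon bases, the longest exon length of any member.

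Summed over the family, SR genes took nearly equal shares of the 3 libraries, and hnRNP genes took their lowest share in G2/M. SR genes summed to 0.502% of the fragments of G1, 0.506% of those of S and 0.502% of those of G2/M, with 95% intervals of 0.49977% to 0.50464%, 0.50380% to 0.50846% and 0.49998% to 0.50461%. The hnRNP genes summed to 2.87% in G1, 2.73% in S and 2.33% in the G2/M fraction, with intervals of 2.8657% to 2.8772%, 2.7203% to 2.7310% and 2.3290% to 2.3389%. Both columns of each phase gave the same order for hnRNP genes: 2.87% and 2.87% for G1, 2.73% and 2.72% for S, 2.33% and 2.34% for G2/M. Hnrnpa3, Hnrnpa2b1, Hnrnpa1 and Hnrnpk held 63.3% of the hnRNP fragments in G1, 62.6% in S and 62.4% of them in G2/M. Without these 4 genes the family took 1.05%, 1.02% and 0.877% of fragments in G1, S and G2/M. The sum over the other 16 genes was thus lowest in G2/M as well. Of these 16, Hnrnpr, Hnrnpul2 and Hnrnpab were higher in G2/M than in G1, with log2 ratios of 0.40, 0.17 and 0.12. Per exon length the sums had another order: the TPM of the hnRNP genes summed to 20881 in G1, 22149 in S and 19271 for G2/M, and those of the SR genes to 3270.3 in G1, 3669 in S and 3745 for G2/M.

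**Figure D1:**
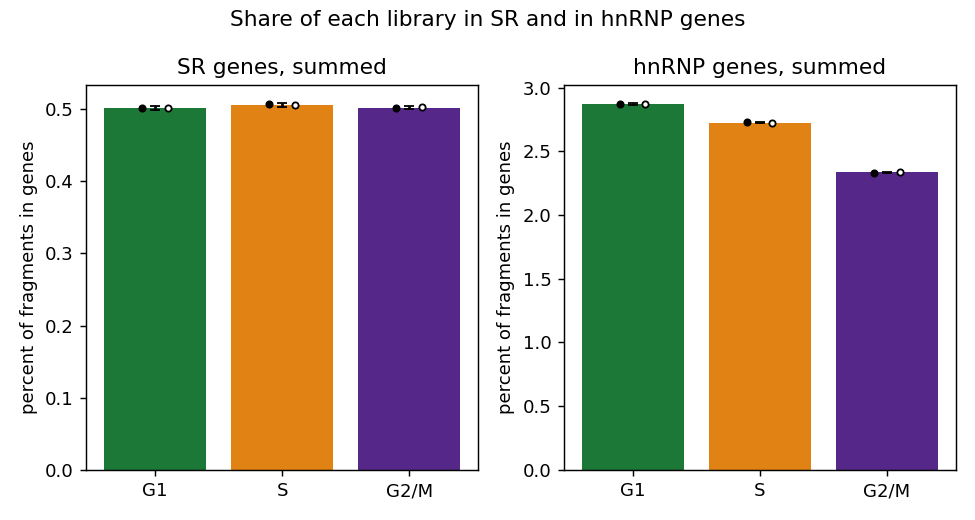
Percent of all fragments in genes that fell in SR genes (left) and in hnRNP genes (right) in each phase library. Bars are the summed columns with the 95% binomial interval, and the filled and open points are the 2 columns of that phase. SR genes held 0.502%, 0.506% and 0.502% in G1, S and G2/M, and hnRNP genes 2.87%, 2.73% and 2.33%.

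For the comparisons gene by gene, CPM were scaled with TMM factors (0.990 in G1, 1.00 in S, 1.01 in G2/M), and a gene counted as measured if it reached 10 CPM in either phase of a comparison. A gene counted as past a fold at 2-fold and, as a second rule, at 1.5-fold. The counts of members stand beside the same count over all measured genes, in place of a test. The 3 comparisons share libraries, so they are not independent of each other. Scaling by TPM in place of TMM raised the median log2 ratio of all genes by 0.20 for S over G1, 0.05 for G2/M over S and 0.25 for G2/M over G1, so that small ratios can change sign, and the ratios below are to be read relative to the median of all genes.

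**Figure D2:**
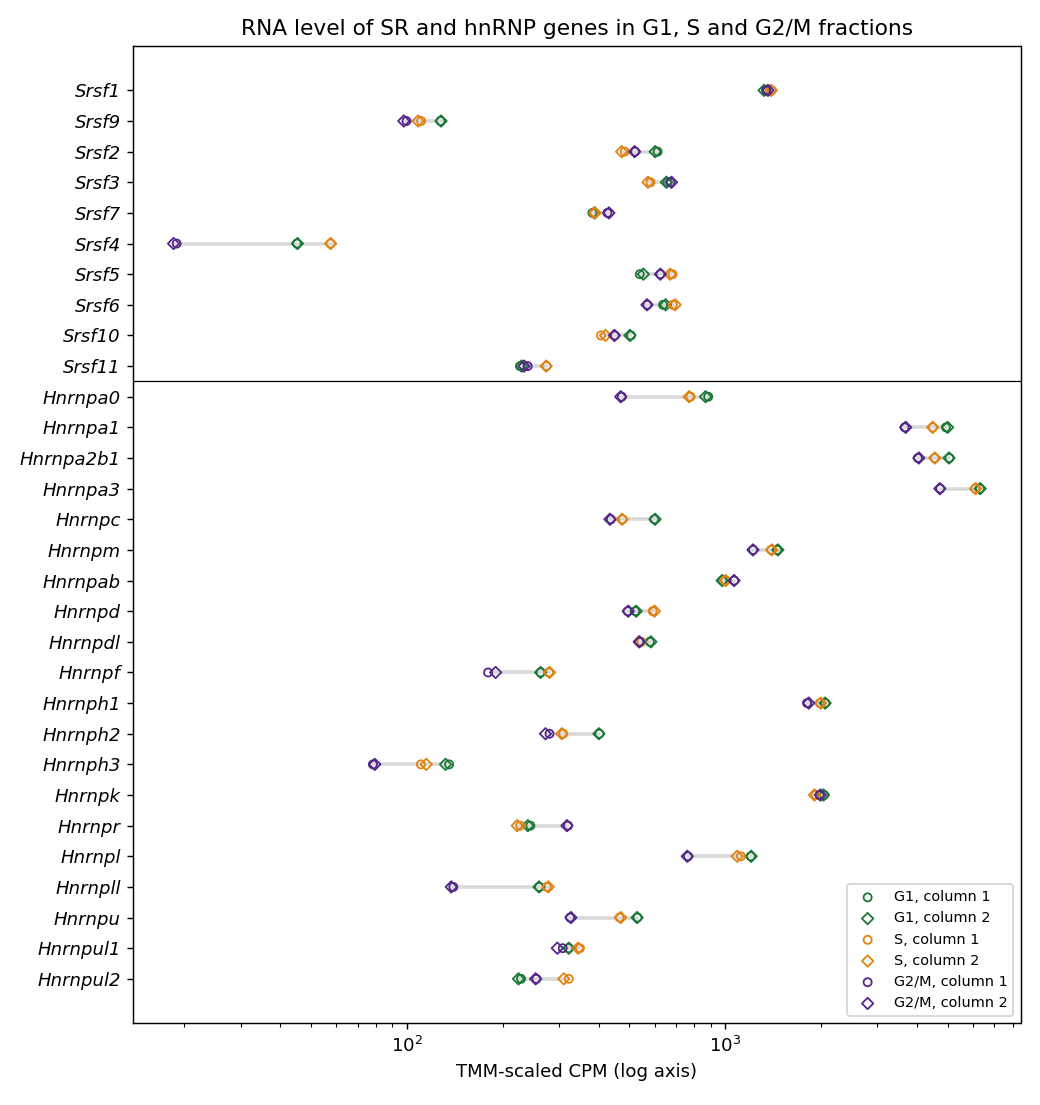
TMM-scaled CPM (log axis) of the 30 measured genes in the 2 columns of each phase: circles are the first and diamonds the second column, and grey bars span the 3 phases. The columns of a phase nearly coincide, and in 16 of 20 hnRNP genes the G2/M values are the lowest, and likewise in 3 of 10 SR genes (12 and 2 with TPM scaling).

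The order of the phases within each gene differed between the families. G2/M was the lowest of the 3 phases in 16 of 20 hnRNP genes and in 3 of 10 SR genes, and this held for 33.1% of the 9071 genes measured in any phase. G1 was the highest phase in 13 of 20 hnRNP genes and in 3 of 10 SR genes, and in 36.4% of all genes. With TPM scaling these counts were lower: G2/M was the lowest phase in 12 of 20 hnRNP and 2 of 10 SR genes (24.6% of all genes), and G1 the highest in 3 of 20 hnRNP and 1 of 10 SR genes (22.7% of all genes). The ranges of the 2 columns did not overlap between any of the 3 phases for 28 of the 30 members, and for 80.2% of all genes. The exceptions were Srsf7, between G1 and S, and Hnrnpdl, between S and G2/M.

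Between S and G1, no member was past 1.5-fold in either direction. Among all 8773 genes measured, 18.5% stood higher in S by 1.5-fold or more and 18.3% stood lower by as much, and 8.63% and 8.59% were past 2-fold higher and lower. Among the 4239 genes that averaged 50 CPM or more, the level of all but 1 measured member, the 1.5-fold shares were 12.2% higher and 8.73% lower. The median log2 ratio was 0.04 for the 10 SR genes, of which 6 were higher and 4 lower, and −0.10 for the 20 hnRNP genes, of which 6 were higher and 14 lower (a median of 0.0943 with TPM scaling). Over all genes the median was −0.01, and 50.4% were lower by any size.

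The largest ratios of S over G1 were in Hnrnpul2, which takes part in DNA end resection in human cells, with 322 and 311 CPM in the 2 columns of S, against 228 and 224 CPM in G1. Its log2 ratio was 0.49 (interval 0.44 to 0.53). Srsf4 followed with 57.5 and 57.6 CPM in S, against 45.1 and 45.3 CPM in G1, a log2 ratio of 0.35 (0.25 to 0.45). Srsf5 had 676 CPM in S and 546 CPM in G1, Srsf11 had 274 CPM and 228 CPM, and Hnrnpd, which binds AU-rich elements and speeds decay of the RNAs that hold them, had 595 CPM in S and 523 CPM in G1. In the other direction stood Hnrnph2 with 308 CPM in S and 401 CPM in G1, a log2 ratio of −0.38 (−0.42 to −0.35). Srsf2, which binds purine- and pyrimidine-rich exonic enhancers and marks nuclear speckles, had 483 and 472 CPM in S, against 613 and 602 CPM in G1, a log2 ratio of −0.35 (−0.38 to −0.32). Hnrnpc, which binds uridine tracts, had 475 CPM in S and 600 CPM in G1 (log2 −0.34). Srsf10 had 413 CPM in S and 503 CPM in G1 (log2 −0.28), and Hnrnph3 had 113 CPM in S and 134 CPM in G1 (log2 −0.25). All of these differences exceeded the spread between the columns of a phase, and all were under 1.5-fold.

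Between G2/M and S, 4 members were at least 1.5-fold lower in G2/M and none was at least 1.5-fold higher. The 4 were Srsf4 among the 10 SR genes and Hnrnpll, Hnrnpa0 and Hnrnpf among the 20 hnRNP genes. Of the 8752 genes measured, 15.4% were at least 1.5-fold lower and 16.1% at least 1.5-fold higher, so the count of lower members is near the share over all genes. Of genes that averaged 50 CPM or more, 7.64% were lower and 6.98% higher by this fold. By level, 2.65% of genes of 500 CPM or more were lower, beside 1 of 17 members. At 200 to 500 CPM 4.61% were lower, beside 2 of 10 members. At 50 to 200 CPM the share was 8.84%, beside 0 of 2 members, and at 10 to 50 CPM 21.2%, beside 1 of 1 (Srsf4). Srsf4 alone was past 2-fold lower, as were 6.60% of all genes, and 7.12% of all genes were past 2-fold higher. The median log2 ratio was −0.08 for SR genes, 4 of them higher and 6 lower, and −0.23 for hnRNP genes, 3 higher and 17 lower. Over all genes the median was 0.01, and 49.5% were lower by any size.

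Between G2/M and G1, 6 members were at least 1.5-fold lower in G2/M and none at least 1.5-fold higher. They were Srsf4 and the hnRNP genes Hnrnpll, Hnrnpa0, Hnrnph3, Hnrnpu and Hnrnpl. Of all 8850 genes measured, 19.6% were at least 1.5-fold lower and 20.2% at least 1.5-fold higher, and of those that averaged 50 CPM or more 11.1% were lower and 12.5% higher. Srsf4 was again the only member past 2-fold, a fold at which 9.81% of all genes were lower and 10% higher. The median log2 ratio was −0.07 for SR genes (0.17 with TPM scaling), 5 of them higher and 5 lower, and −0.37 for hnRNP genes, 3 higher and 17 lower, with quartiles of −0.57 and −0.09. With TPM scaling the ratios of Hnrnpd, Hnrnpdl, Hnrnph1, Hnrnpk and Hnrnpul1 turned from negative to positive, as did those of Srsf2, Srsf6 and Srsf10. Over all genes the median was −0.00 with quartiles of −0.44 and 0.46, and 50.2% were lower by any size. The count of 6 in 30 members is thus near the share over all genes, most of which had lower levels than the members. Shares among genes of the members' own level are given below. Most of the lower hnRNP genes differed by under 1.5-fold.

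**Figure D3:**
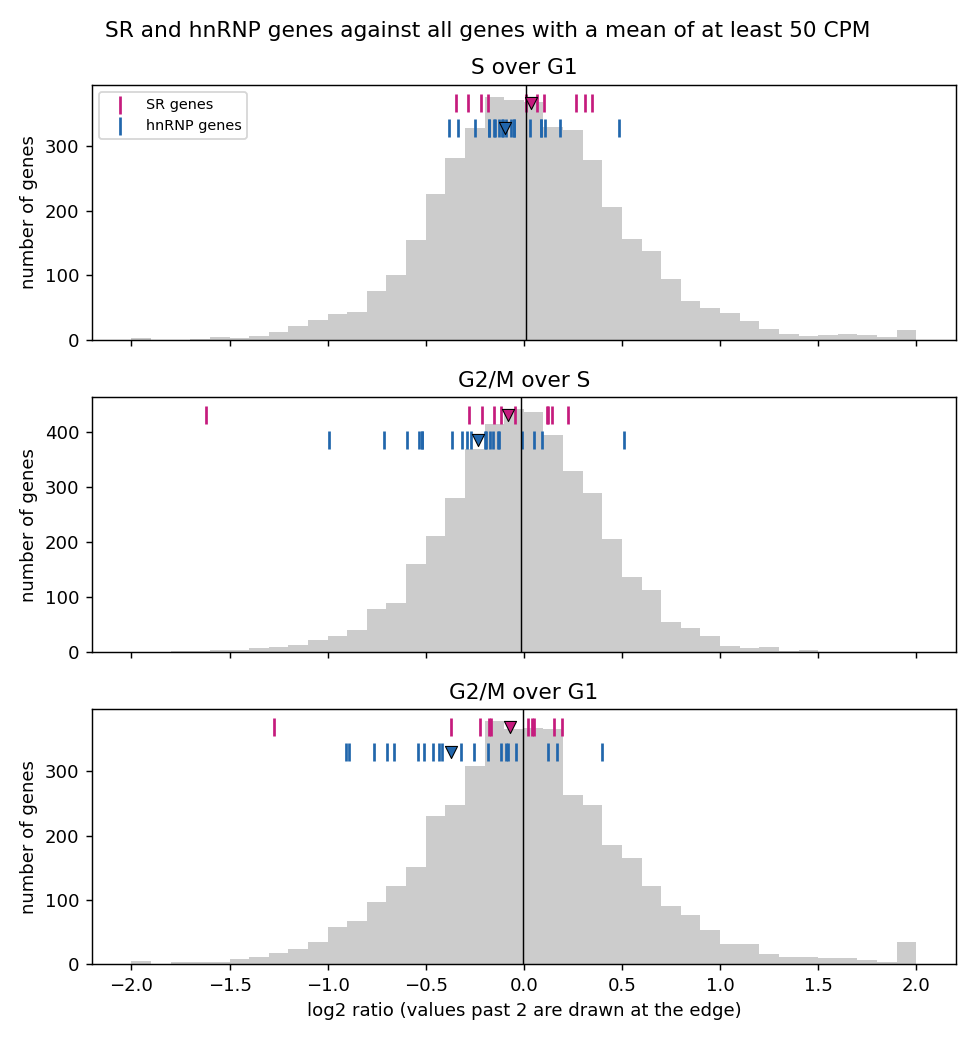
Log2 ratios of the SR genes and hnRNP genes (upper and lower row of ticks, triangles at the median of each family) over the distribution of the 4239 genes that averaged 50 CPM or more (grey bars, vertical line at their median). For G2/M over G1 the hnRNP median lies at −0.37 and the SR median at −0.07.

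Because low genes vary more between libraries, the members were also set against genes of their own level. Among the 302 genes that averaged 500 CPM or more, 6.29% were at least 1.5-fold lower in G2/M than in G1, and 2 of the 17 members in this class were (Hnrnpa0 and Hnrnpl). Among the 759 genes of 200 to 500 CPM, 7.11% were lower by this fold, and 2 of 10 members were (Hnrnpll and Hnrnpu). Of the genes of 50 to 200 CPM 12.5% were lower, and 1 of 2 members was (Hnrnph3). Srsf4 is the single member of 10 to 50 CPM, where 25% of 4096 genes were lower by this fold and 50.0% were past it in either direction. The robust SD of the log2 ratio in that class was 0.87, to be read beside the −1.27 of Srsf4.

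Ratios over the 4239 genes that averaged 50 CPM or more also moved with exon length. Genes with exon lengths under 3474 bases had a median log2 ratio of G2/M over G1 of −0.12, those in between −0.02 and those over 6081 bases 0.12. The medians of the hnRNP genes were lower in each class, at −0.48 for 6 short, −0.22 for 10 middle and −0.39 for 4 long genes, while single hnRNP genes such as Hnrnpr lay above the median of their class. The share of mitochondrially encoded fragments moved in the same direction as the hnRNP share, and all 8 measured mitochondrial genes were lower in G2/M than in G1, with a median log2 ratio of −0.72. Its part in the hnRNP result was not tested.

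**Figure D4:**
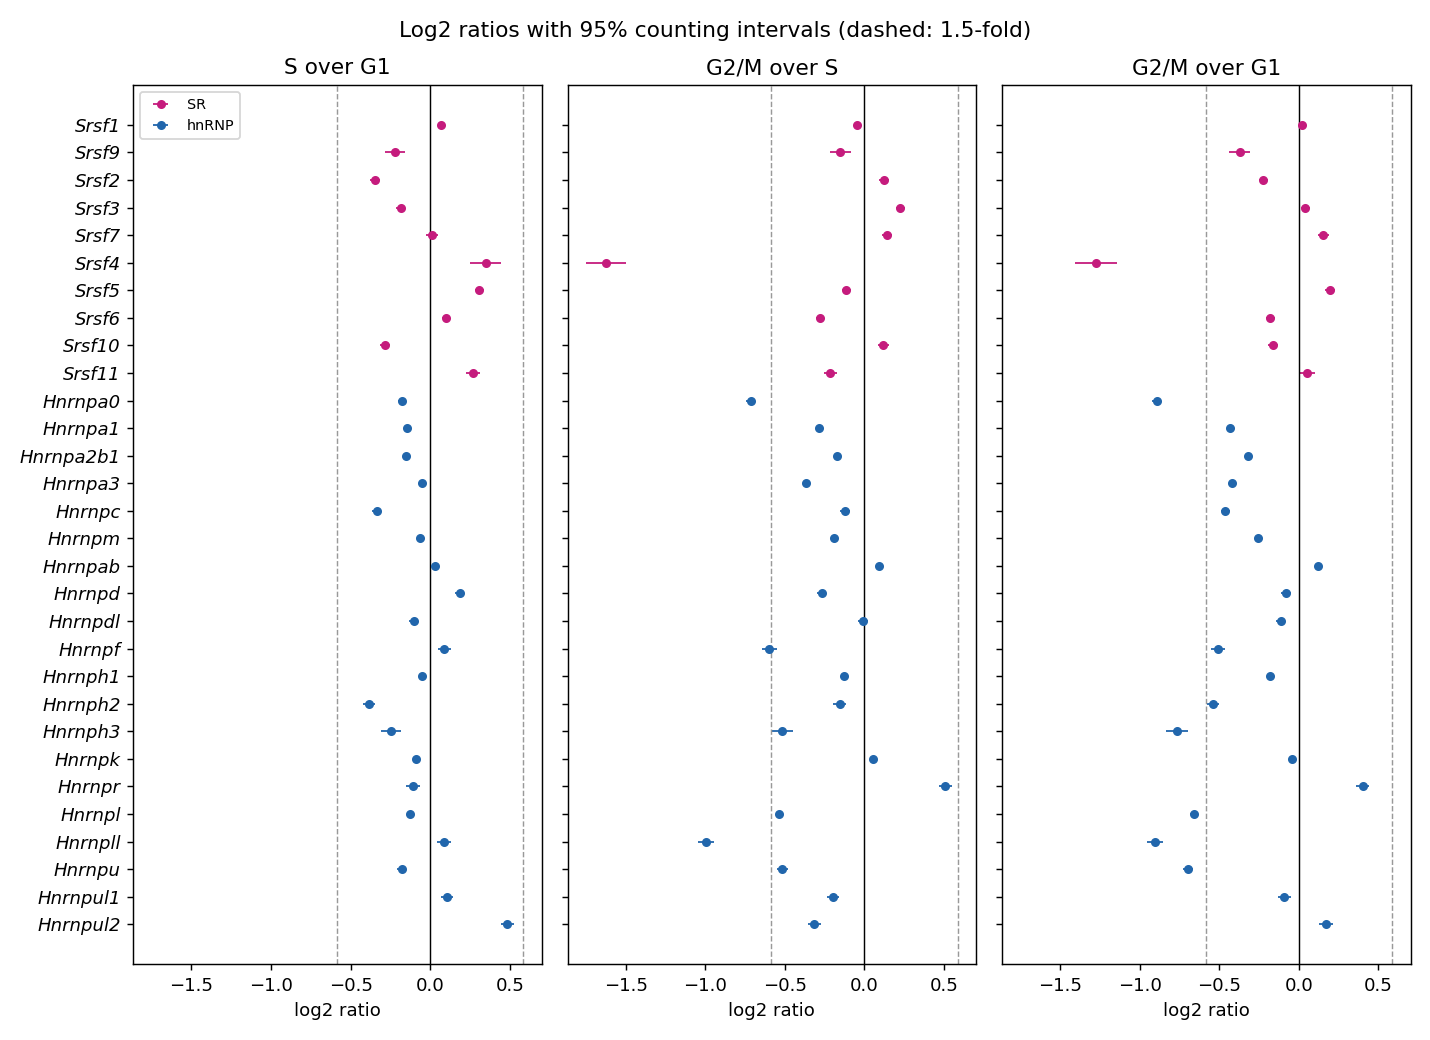
Log2 ratios of each measured SR and hnRNP gene in the 3 comparisons, with 95% counting intervals, and dashed lines at 1.5-fold in each direction. Srsf4 has the lowest ratio in both comparisons of G2/M, and Hnrnpr is the gene with the highest ratio in both.

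Srsf1 and Srsf9 are close paralogs, and Srsf1, a founding member of the SR proteins, is the most abundant SR gene here. Srsf1 had 1346 and 1362 CPM in the 2 columns of G2/M, against 1343 and 1323 CPM in G1, and 1399 and 1393 CPM in S. Its log2 ratio of G2/M over G1 was 0.02 (0.00 to 0.04), the smallest difference of any member in this comparison. Srsf9 had 98.7 CPM in G2/M and 128 CPM in G1, a log2 ratio of −0.37 (−0.44 to −0.31). The minor paralog was thus lower in G2/M while the major one was nearly level. Srsf1 and Hnrnpa1 are known to act against each other on the choice of splice site, and their ratio within a library does not depend on the scaling. Srsf1 stood at 0.0903 of the TPM of Hnrnpa1 in G1, at 0.105 in S and at 0.124 in G2/M.

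Srsf2 had 521 and 519 CPM in G2/M, between its levels in G1 and S, with a log2 ratio of −0.22 over G1 (−0.25 to −0.20) and 0.12 over S. Srsf3, the smallest SR protein, which also links splicing to export of RNA, had 675 CPM in G2/M, against 577 CPM in S (log2 0.23, interval 0.20 to 0.25) and 656 CPM in G1 (log2 0.04). Srsf7, a paralog of Srsf3 with a zinc knuckle, had 426 and 431 CPM in G2/M, against 386 and 390 CPM in S and 382 and 388 CPM in G1. Its log2 ratios were 0.14 over S and 0.15 over G1, and its levels in S and G1 overlapped between columns. Both members of this pair were highest in G2/M.

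Srsf4, Srsf5 and Srsf6 are related proteins with 2 RNA recognition motifs, and they held the widest range of ratios among the SR genes. Srsf4 had 18.9 and 18.5 CPM in G2/M, against 57.5 and 57.6 CPM in S and 45.1 and 45.3 CPM in G1. It was 3.08-fold lower in G2/M than in S (log2 −1.62, interval −1.75 to −1.50) and 2.42-fold lower than in G1 (log2 −1.27, interval −1.41 to −1.14). It rests on 678 fragments in G2/M, 2062 in S and 1449 in G1. Srsf5 had 625 CPM in G2/M, against 676 CPM in S and 546 CPM in G1, with a log2 ratio of 0.20 over G1 (0.17 to 0.22). Srsf6 had 568 CPM in G2/M, against 690.0 CPM in S and 643 CPM in G1, with a log2 ratio of −0.18 over G1 (−0.21 to −0.15). Within a library, Srsf5 stood at 10.8 times the TPM of Srsf4 in G1, at 10.5 times in S and at 29.9 times in G2/M. In the annotation, 43.0% of the exon bases of Srsf4 (ENSMUSG00000028911, GRCm38 chr4:131873617-131901706, plus strand) overlap Gm12992 on the opposite strand, a gene with 9, 0 and 0 fragments in G1, S and G2/M.

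Srsf10, Srsf11 and Srsf12 are SR proteins that act less as general activators. Srsf10, which is dephosphorylated in mitosis and then represses splicing, had 449 CPM in G2/M, against 413 CPM in S (log2 0.12) and 503 CPM in G1 (log2 −0.17). Srsf11 had 236 CPM in G2/M, against 274 CPM in S (log2 −0.21) and 228 CPM in G1 (log2 0.05). Srsf12 was not detected, and the 0 fragments allow a level of up to 0.0936 CPM in G1, 0.0837 CPM in S, or 0.0827 CPM in G2/M, by a limit of 3 fragments.

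The A group holds the core proteins of the hnRNP particle, which bind exonic and intronic silencers rich in UAG. In G2/M all 4 stood lower than in S and in G1. Hnrnpa0 (ENSMUSG00000007836, GRCm38 chr13:58125879-58128556, minus strand), a minor member of the group that binds AU-rich elements, had 473 and 469 CPM in G2/M, against 777 and 769.6 CPM in S and 883 and 867 CPM in G1. It was 1.64-fold lower than in S (log2 −0.71, interval −0.74 to −0.69) and 1.86-fold lower than in G1 (log2 −0.89, interval −0.92 to −0.87). Hnrnpa1 had 3673 CPM in G2/M, against 4482 CPM in S (log2 −0.29) and 4960.1 CPM in G1 (log2 −0.43, interval −0.44 to −0.42). Hnrnpa2b1, which also carries RNA along processes and into vesicles, had 4040.1 CPM in G2/M, against 4548 CPM in S (log2 −0.17) and 5049 CPM in G1 (log2 −0.32). Hnrnpa3 had 4725 CPM in G2/M, against 6100.1 CPM in S (log2 −0.37) and 6309.9 CPM in G1 (log2 −0.42). The largest ratio of the group thus lay in its least abundant gene, with the 3 abundant ones between 1.25-fold and 1.35-fold lower in G2/M than in G1.

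Hnrnpc, which forms tetramers on long transcripts, had 435 CPM in G2/M, against 475 CPM in S (log2 −0.13) and 600 CPM in G1 (log2 −0.46, interval −0.49 to −0.43). Hnrnpm had 1222 CPM in G2/M, against 1395 CPM in S (log2 −0.19) and 1459 CPM in G1 (log2 −0.26). The lower level of Hnrnpc was already present in S, while that of Hnrnpm was larger between G2/M and S than between S and G1.

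The proteins of the D group bind AU-rich RNA and also single-stranded DNA, and their genes had no ratio past 1.5-fold. Hnrnpab had 1066 CPM in G2/M, against 1000 CPM in S (log2 0.09) and 979 CPM in G1 (log2 0.12), and was one of 3 hnRNP genes higher in G2/M than in G1. Hnrnpd had 494 CPM in G2/M, against 595 CPM in S (log2 −0.27) and 523 CPM in G1 (log2 −0.08). Hnrnpdl had 537 CPM in G2/M, against 541 CPM in S (log2 −0.01) and 581 CPM in G1 (log2 −0.11). Hnrnpd and Hnrnpdl lie near each other on chromosome 5, at 99955935 to 99978938 and 100033577 to 100039664 of GRCm38, both on the minus strand.

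The F and H group binds runs of guanines and can enhance or silence exons. In G2/M all 4 stood lower than in G1, by different amounts (with TPM scaling Hnrnph1 stood 0.06 higher on the log2 scale). Hnrnph3, the least abundant of them, had 78.2 and 79.2 CPM in G2/M, against 111 and 115 CPM in S and 136 and 132 CPM in G1, a log2 ratio of −0.77 over G1 (−0.83 to −0.70) and −0.52 over S. Hnrnph2 had 276 CPM in G2/M, against 308 CPM in S (log2 −0.16) and 401 CPM in G1 (log2 −0.54), just under 1.5-fold. Hnrnpf had 180 and 190 CPM in G2/M, against 279 and 280.4 CPM in S (log2 −0.60, interval −0.64 to −0.55) and 263 CPM in both columns of G1 (log2 −0.51). Hnrnph1, the major gene of the group, had 1817 CPM in G2/M, against 1988 CPM in S (log2 −0.13) and 2059 CPM in G1 (log2 −0.18). Hnrnpf lies just past 1.5-fold over S, and its interval spans that fold.

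Hnrnpl and Hnrnpll bind RNA rich in CA, and Hnrnpll is known as the silencer of variable exons of Ptprc in lymphocytes. Ptprc itself had 0 fragments in these cells. Hnrnpll (ENSMUSG00000024095, GRCm38 chr17:80029487-80062334, minus strand) had 140 and 138 CPM in G2/M, against 275 and 278 CPM in S and 260.2 and 259.9 CPM in G1. It was 1.99-fold lower in G2/M than in S (log2 −0.99, interval −1.04 to −0.95) and 1.87-fold lower than in G1 (log2 −0.91, interval −0.96 to −0.86), the largest ratios of any hnRNP gene in both comparisons. Hnrnpl had 764 and 759 CPM in G2/M, against 1119 and 1089.6 CPM in S (log2 −0.54, interval −0.56 to −0.51) and 1202 and 1205 CPM in G1 (log2 −0.66, interval −0.68 to −0.64). Neither gene shares exon bases with another gene in the annotation.

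Hnrnpu, a large protein that also attaches RNA to chromatin, had 325 and 327 CPM in G2/M, against 465 and 469 CPM in S (log2 −0.52, interval −0.55 to −0.48) and 530 and 528 CPM in G1 (log2 −0.70, interval −0.73 to −0.66). Its relatives did not share this pattern. Hnrnpul1 had 302 CPM in G2/M, against 347 CPM in S (log2 −0.20) and 322 CPM in G1 (log2 −0.09). Hnrnpul2 had 255 and 254 CPM in G2/M, a log2 ratio of −0.32 over S and 0.17 over G1 (0.13 to 0.21). Hnrnpul2 stood at 0.669 of the TPM of Hnrnpu in G1, at 1.06 in S and at 1.22 in G2/M, so this ratio was higher in the later phases. By CPM, Hnrnpul2 stood below Hnrnpu in each phase, at 226 against 529 in G1, 317 against 467 in S and 254 against 326 in G2/M. Which gene ranks higher thus depends on exon length, and 30.8% of the exon bases of Hnrnpu overlap a same-strand gene model. The order without these bases was not tested.

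Hnrnpk, which binds C-rich RNA through KH domains, had 1983 CPM in G2/M, against 1914 CPM in S (log2 0.05) and 2039 CPM in G1 (log2 −0.04). Hnrnpr, a relative of Syncrip known for carrying RNA in axons of neurons, had 320.5 and 318 CPM in G2/M, against 227 and 222 CPM in S and 244 and 240 CPM in G1. Its level in G2/M was 1.42-fold that of S (log2 0.51, interval 0.47 to 0.55) and 1.32-fold that of G1 (log2 0.40, interval 0.36 to 0.44), the highest ratio of any member in both comparisons.

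Counts of some members are less certain. In the annotation 19 members share no exon base with another gene and 7 share under 6%. The other 5 share over 20%: Srsf4, Hnrnpu with 30.8% (a same-strand gene model without fragments), Hnrnpab with 29.1% (Phykpl, opposite strand), Srsf2 with 25.3% (Mettl23 and Mfsd11, opposite strand) and Hnrnpm with 24.9% (March2, same strand). Of these neighbours Mfsd11 had 11.3 CPM in G2/M, against 19.5 CPM in S and 47.4 CPM in G1, and March2 had 10.5 CPM in G2/M, against 12.5 CPM in S and 26.3 CPM in G1. The header of the count table names no option for strand or for genes that overlap. A neighbour without fragments thus does not show that the member kept the fragments of shared bases. TPM of these members used all of their exon bases. Hnrnpa1, Hnrnpa3 and Srsf3 have processed copies elsewhere in the genome, and the sources used here do not say how fragments were shared with them.

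To set the members beside the rest of the splicing apparatus, 6 further lists of genes were measured. Other hnRNP proteins without an Hnrnp symbol (13 of 14 measured) had median log2 ratios of −0.05 for S over G1, −0.08 for G2/M over S and −0.24 for G2/M over G1, where 10 of 13 were lower, beside 50.2% of all genes. Of the 13, 3 were at least 1.5-fold lower in G2/M than in G1, which is near the 19.6% of all genes, and none was as much higher, beside 20.2% of all genes. Cirbp, a cold-inducible RNA-binding protein, had 20.1 CPM in G2/M, against 51.9 CPM in S and 73.3 CPM in G1, and was 3.65-fold lower than in G1. Ptbp2, a repressor of neuronal exons, had 49.9 CPM in G2/M, against 92.1 CPM in S and 85.6 CPM in G1. Pcbp2, a poly(C)-binding protein, went the other way with 293 CPM in G2/M, against 249 CPM in S and 197 CPM in G1. Rbmx, an X-linked hnRNP protein, had 102 CPM in G2/M, against 70.4 CPM in S and 102 CPM in G1.

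**Figure D5:**
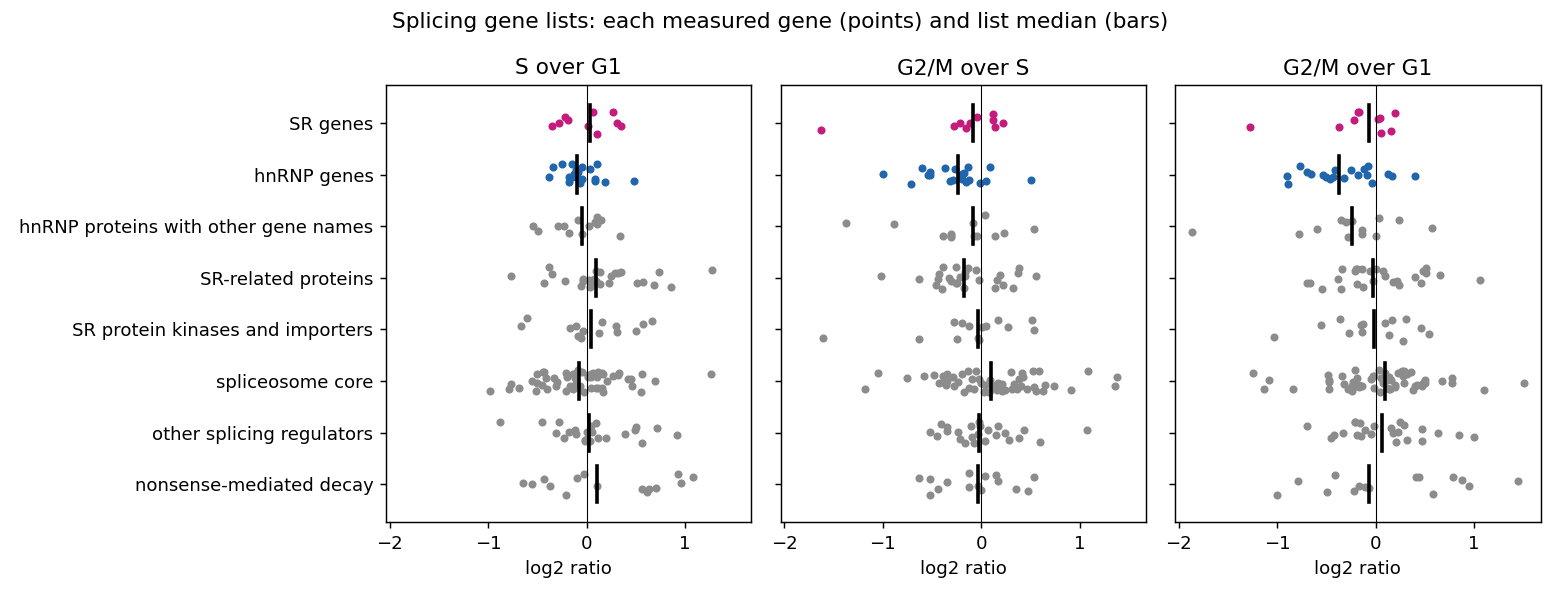
Log2 ratios of each measured gene (points) and the median (black bars) for the SR genes, the hnRNP genes and 6 further lists of splicing genes. In G2/M over G1 the medians of the hnRNP genes and of the other hnRNP proteins are −0.37 and −0.24, and the other 6 medians lie between −0.07 and 0.10.

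SR-related proteins, which carry arginine-serine stretches without being classical SR proteins, were measured for 27 of 29 genes. Their medians were 0.10, −0.18 and −0.03 for S over G1, G2/M over S and G2/M over G1, with 2 genes at least 1.5-fold higher and 2 as much lower in G2/M than in G1, beside 20.2% and 19.6% of all genes. Sfswap, named for a Drosophila gene that limits its own splicing, had 51.1 CPM in G2/M, against 59.3 CPM in S and 24.5 CPM in G1. Srrm2, a scaffold of nuclear speckles, had 315 CPM in G2/M, against 286 CPM in S and 200.1 CPM in G1. Cherp had 29.6 CPM in G2/M, against 59.9 CPM in S and 48.0 CPM in G1. Luc7l had 85.6 CPM in G2/M, against 133 CPM in S and 136 CPM in G1.

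The kinases, phosphatases and importers that act on SR proteins (14 of 16 measured) had medians of 0.05 for S over G1, −0.03 for G2/M over S and −0.02 for G2/M over G1. Clk3, a kinase of the SR tail, had 12.8 CPM in G2/M, against 38.9 CPM in S and 26.2 CPM in G1, and was the only one of the 14 at least 1.5-fold lower in G2/M than in G1, with none as much higher, beside 19.6% and 20.2% of all genes. Clk4 had 98.7 CPM in G2/M, against 68.1 CPM in S and 108 CPM in G1. Srpk2 had 89.5 CPM in G2/M, against 62.5 CPM in S and 65.1 CPM in G1. Prpf4b, a kinase tied to the spliceosome, had 161 CPM in G2/M, against 175 CPM in S and 110.2 CPM in G1. Ppp1cc, a phosphatase catalytic subunit, had 109 CPM in G2/M, against 105 CPM in S and 160.1 CPM in G1.

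The core of the spliceosome (57 of 58 genes measured in G2/M over G1) had medians of −0.08 for S over G1 and 0.10 for both comparisons of G2/M, with 33 genes higher and 24 lower in G2/M than in G1. Past 1.5-fold were 5 of the 57 higher and 4 lower, fewer than the 20.2% and 19.6% of all genes. Aqr, a helicase that binds introns, had 57.0 CPM in G2/M, against 48.2 CPM in S and 20.1 CPM in G1, and Cdc5l had 164 CPM in G2/M, against 113 CPM in S and 76.7 CPM in G1. Lsm2, of the ring that binds U6 RNA, had 41.6 CPM in G2/M, against 57.8 CPM in S and 98.7 CPM in G1. Lsm4, of the same ring, had 78.8 CPM in G2/M, against 178 CPM in S and 173 CPM in G1. Snrpa, of the U1 particle, had 34.2 CPM in G2/M, against 13.2 CPM in S and 26.0 CPM in G1.

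Other regulators of splicing (24 of 32 measured) had medians of 0.02 for S over G1, −0.03 for G2/M over S and 0.07 for G2/M over G1. Sfpq, a paraspeckle protein at the level of the abundant members, had 1111 CPM in G2/M, against 1587 CPM in S and 1487 CPM in G1. Pspc1, its paraspeckle partner, had 82.6 CPM in G2/M, against 60.9 CPM in S and 41.3 CPM in G1. Mbnl3, of the muscleblind family, had 44.0 CPM in G2/M, against 60.3 CPM in S and 31.8 CPM in G1. Khdrbs3 had 21.7 CPM in G2/M, against 19.3 CPM in S and 35.3 CPM in G1.

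Genes of nonsense-mediated decay and the exon junction complex (15 of 15 measured) had medians of 0.10 for S over G1, −0.03 for G2/M over S and −0.07 for G2/M over G1. Between G2/M and G1, 4 of the 15 were at least 1.5-fold higher and 2 as much lower, beside 20.2% and 19.6% of all genes. Upf1, the helicase at the centre of this pathway, had 201 CPM in G2/M, against 274 CPM in S and 402 CPM in G1. Eif4a3, of the exon junction complex, had 107 CPM in G2/M, against 136 CPM in S and 184 CPM in G1. Smg6, the endonuclease of the pathway, had 83.3 CPM in G2/M, against 65.1 CPM in S and 30.7 CPM in G1, and Smg8 had 30.7 CPM in G2/M, against 30.8 CPM in S and 15.9 CPM in G1.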

How the data were processed

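RNA was measured by RNA-seq in 6 columns from 3 phases, and the 24 ChIP-seq samples of the series are not analysed here. The authors deposited one table of raw counts, which its header attributes to featureCounts 1.5.0-p3. Per the file headers, read pairs were assigned to the exons of an Ensembl annotation of GRCm38 and added up by gene identifier, and the command sets nothing on strand, on reads with several alignments or on genes that overlap. The submitters' processing notes also list HISAT2 2.1.0, SAMtools 1.6 and featureCounts 1.5.0, with no role. Reads had 101 cycles, per the labels' protocols. A supplied table gave symbols to 45143 genes (98.0%).

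The 2 columns of a phase were compared by chi-square over genes with at least 10 fragments (chi-square over degrees of freedom 1.00 for G1, 1.03 for S, 1.15 for G2/M) and summed to 1 library. TMM factors were computed over 12971 genes with edgeR 4.0.16 (R 4.3.3) and applied to CPM, and TPM used the exon lengths of the table. A count under 3 was set to 3 in ratios. The scripts in Python 3.11.15 were tested on simulated counts. Depth was 32395232 to 35907974 fragments per phase.

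All members are named. Genes named from a companion list were among the 2 with the largest ratios in each direction of a comparison, among genes at 10 CPM or more. The members and lists were chosen with earlier results of these data known. Alternatives were other scalings, other minimum levels and each column alone. Counts of motifs in protein sequences were planned and not run. Where a gene had several promoter windows, the one nearest the outer 5′ end in the deposited table was used.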

Additional observations from a re-analysis of the deposited data

How the results depend on the processing

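No paired analysis was possible because the results come from no test and the columns of each phase were summed to 1 library. Under library size alone, size factors from medians of ratios (RLE), a minimum of 1 CPM and no minimum, each of the 30 counts past a fold and family medians stayed within the limits set for it (1.5 times for a count). At that limit, the hnRNP genes at least 1.5-fold lower in G2/M than in S were 2 under library size alone and 3 in the main setting, because Hnrnpf lies near this fold. They were also 2 with the second column of each phase alone. With a minimum of 50 CPM, which removes Srsf4 from G2/M over G1, the SR genes at least 2-fold lower and at least 1.5-fold lower in G2/M than in G1 were 0 each, and their median log2 ratio was 0.0218. With 1 column of each phase alone, the hnRNP genes at least 2-fold lower in G2/M than in S ranged from 0 to 1, because Hnrnpll lies at this fold.

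Scaling by TPM, which was chosen after seeing the data, moved the median of all genes by 0.20 for S over G1, 0.05 for G2/M over S and 0.25 for G2/M over G1, and the ratios of the members are read relative to that shift. The medians were then 0.23 for SR and 0.0943 for hnRNP genes in S over G1, −0.0343 and −0.19 in G2/M over S, and 0.17 and −0.13 in G2/M over G1. The hnRNP genes at least 1.5-fold higher were 1 in S over G1 and 1 in G2/M over G1, and those at least 1.5-fold lower in G2/M than in G1 were 2. Of the 90 ratios of members, 22 changed sign under this scaling and 1 (Hnrnpdl, G2/M over S) under library size alone.

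With 1 library per phase, no alternative here measures the spread between cultures.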

Other observations

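The pseudogenes left out of the hnRNP genes were counted in the same libraries. Hnrnpa1l2-ps2 had 4 and 6 fragments in the 2 columns of G2/M and 3 and 11 in those of S, against 97 and 117 in those of G1. Hnrnpa1l2-ps had 49 fragments in G2/M, 47 in S and 48 in G1. RefSeq lists the first of these as protein-coding, although its symbol marks a pseudogene.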
